A study of Homo sapiens with 58 samples.

Results

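The transcripts described here come from 10 immediate early genes, FOS, JUN, JUNB, JUND, MYC, EGR1, KLF6, DUSP1, IER2 and IER3. They were followed as targets of HuR, the RNA-binding protein encoded by ELAVL1. Every peak of the combined peak table that carried 1 of these names was taken, after 8257 repeated lines had been dropped. This gave 42 of 387214 peaks and 10 of 13836 named genes. Each peak is 20 nt long. The table gives, for each peak and library, the CLIP tags (sequenced footprints of RNA crosslinked to HuR) divided by the library's total. Values are given here as counts of tags per 1000000 of that total (CPM).

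All libraries came from Huh-7.5, a human hepatocellular carcinoma line, after UV crosslinking and immunoprecipitation with the HuR antibody 3A2. The 12 fraction libraries came from wild-type cells without a peroxidase reaction, as nuclear and cytoplasmic fractions of mock cells and of cells given 0.5 mM sodium arsenite for 45 min, with 3 libraries in each of the 4 groups. The other 46 libraries came from lines that carry the ascorbate peroxidase APEX with a nuclear localization signal (NLS), with a nuclear export signal (NES) or fused to the stress granule protein G3BP1, mock or arsenite-treated, after biotin phenol and hydrogen peroxide. Of these, 17 were the HuR immunoprecipitate itself (input) and 29 were taken through streptavidin capture as well (enriched), so that HuR near the peroxidase was kept. The labels do not say whether a line is 1 clone, nor whether numbered libraries came from separate cultures, so p-values measure the spread between libraries, which may be technical.

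Immediate early genes are transcribed within minutes of a stimulus without new protein synthesis, and most of their messages are short-lived. Many carry AU-rich elements in the 3'UTR, which decay factors of the ZFP36 family use to destabilise an mRNA, and HuR binds U-rich and AU-rich stretches of the same kind. HuR is mainly nuclear in resting cells and moves partly to the cytoplasm and into stress granules under stress. Arsenite, an oxidative stressor, activates stress kinases and blocks translation initiation. A CLIP tag count reflects both the amount of an RNA and how much of it is crosslinked to HuR, and these cannot be told apart in these libraries.

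The genes JUND, JUN and DUSP1 were picked because their 3'UTR tags rose with arsenite in both fractions. Whether their promoters had a part in that was not tested. The upstream sequences of these 3 genes are shown. Each is the 250 bases before the RefSeq gene start, 5′ to 3′ on the gene's strand, in GRCh38.p14, with TGACG or its reverse complement CGTCA in capitals. That pentamer is the core of the cyclic AMP response element (CRE), TGACGTCA, which contains it on both strands and which CREB and ATF proteins bind. JUND lies at chr19:18281623-18281872, JUN at chr1:58784048-58784297 and DUSP1 at chr5:172771196-172771445, all on the minus strand.
JUND: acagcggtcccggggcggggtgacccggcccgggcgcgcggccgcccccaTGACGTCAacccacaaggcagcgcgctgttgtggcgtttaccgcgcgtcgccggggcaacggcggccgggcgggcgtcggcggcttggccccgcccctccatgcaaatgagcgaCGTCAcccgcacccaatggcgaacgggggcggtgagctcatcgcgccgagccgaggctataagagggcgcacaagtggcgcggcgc
JUN: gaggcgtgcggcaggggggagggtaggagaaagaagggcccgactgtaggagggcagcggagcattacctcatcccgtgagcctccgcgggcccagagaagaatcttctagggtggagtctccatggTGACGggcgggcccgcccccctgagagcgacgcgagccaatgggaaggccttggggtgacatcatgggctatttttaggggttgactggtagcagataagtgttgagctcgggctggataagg
DUSP1: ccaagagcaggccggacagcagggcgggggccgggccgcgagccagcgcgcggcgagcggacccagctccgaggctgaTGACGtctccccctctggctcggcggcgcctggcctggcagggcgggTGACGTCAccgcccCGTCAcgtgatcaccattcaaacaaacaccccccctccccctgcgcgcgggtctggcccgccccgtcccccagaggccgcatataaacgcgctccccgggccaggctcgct

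RefSeq gave such a sequence for 8 of the 10 genes, all but MYC and IER3. The full TGACGTCA was found in 2 of these 8, JUND and DUSP1, and in 1.65% of the 35116 promoters of the same length. The pentamer was found in 7 of the 8, all but KLF6, and in 21.2% of all promoters. The TATA box letters TATAAA, searched on the gene's strand and its reverse, were found in 3 of the 8 (DUSP1, FOS and JUNB) and in 10.7% of all promoters. These are matches of letters and not measured sites. No peak of the 10 genes lay in these windows.

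The 42 peaks held 8516 tags over the 58 libraries, 0.108% of all tags. HuR tags on these genes were nearly all in 3'UTRs: 33 peaks and 98.4% of the tags, against 23.8% of all tags in the table. That comparison took no account of the number or length of introns in a gene. The JUND peak with 5899 of these tags is also listed as coding sequence and intron. The other peaks were 5 introns of KLF6, 1 intron each of JUN and MYC, 1 in the JUN 5'UTR and 1 of MYC in the class the table calls Other. The JUN peak called intronic lies 82 bases beyond the RefSeq end of the gene and is the only 1 of the 42 outside its gene. JUND gave 6187 tags, or 72.7%, JUN 878, KLF6 562, DUSP1 359, MYC 164, IER2 149, FOS 129, EGR1 61, JUNB 21 and IER3 6. By 3'UTR tags JUND was 17th of 7619 genes. Because JUND outweighs the others, sums over the genes are given with it and, for 3'UTR peaks, without it.

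**Figure D1:**
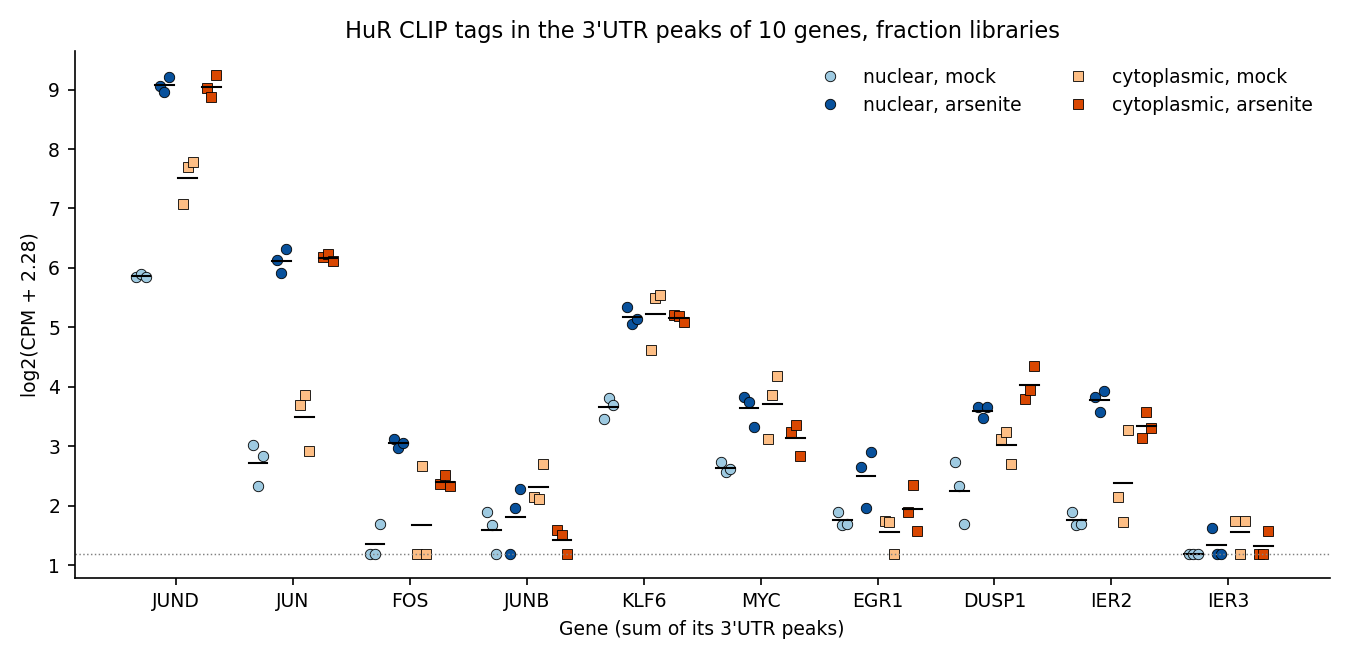
Tags in the summed 3'UTR peaks of each gene in the 12 fraction libraries, as log2(CPM + 2.28). Points are libraries, bars are means of 3, and the dotted line is 0 tags. JUND and JUN stand highest after arsenite in both fractions, and the nuclear arsenite points of FOS, IER2, KLF6 and DUSP1 lie above their nuclear mock points.

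Summed over the 10 genes, HuR tags went from 89.4 ± 0.806 CPM in mock nuclei to 698 ± 62.9 in arsenite nuclei, and from 264 ± 66.5 in mock cytoplasm to 673 ± 66.6 in arsenite cytoplasm (mean ± SD, n = 3 each). Without JUND, the other 9 genes held, in their 3'UTR peaks, 27.7, 23.6 and 23.2 CPM in the mock nuclear libraries and 152, 128 and 155 in the arsenite nuclear ones. In the cytoplasm these 3'UTR peaks held 52.1, 82.5 and 82.2 CPM in mock and 135, 145 and 134 after arsenite. Neither pair of groups overlapped.

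Each gene and peak class was tested as the log2 difference of CPM + 2.28, with limma over all such sums and Benjamini-Hochberg adjustment, at an adjusted p of 0.05. In the nuclear fraction 8 of 14 tested sums of these genes passed, 7 higher with arsenite and 1 lower, where 6.13% of all 22212 sums passed. In the cytoplasmic fraction 4 of 14 passed, 3 higher and 1 lower, where 13.3% of all 22884 passed. With edgeR and TMM scaling the cytoplasmic split was 3 higher and 2 lower. In limma, leaving out 1 nuclear arsenite library cut the nuclear calls over all sums to between 54 and 414. Calls of these genes lost in that way stand beside this general loss. Among 3'UTR sums alone, 6 of 9 were higher in nuclei (JUND, JUN, FOS, KLF6, DUSP1 and IER2) against 13.8% of all 6001, with a median log2 difference of 1.53 against 0.39 over all. In cytoplasm 3 of 10 were higher (JUND, JUN and DUSP1) against 0.942% of all 6685, with a median of 0.56 against -0.30. IER3 was not tested in nuclei because it had too few tags. The sums that passed the filter on low values did so partly through the group in which they were high. The MYC intron in nuclei and the MYC peak of class Other in cytoplasm passed it through mock libraries alone. In nuclei the JUN 5'UTR and FOS 3'UTR had tags in 3 arsenite libraries and 1 mock library. All of these are counted among the calls above.

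**Figure D2:**
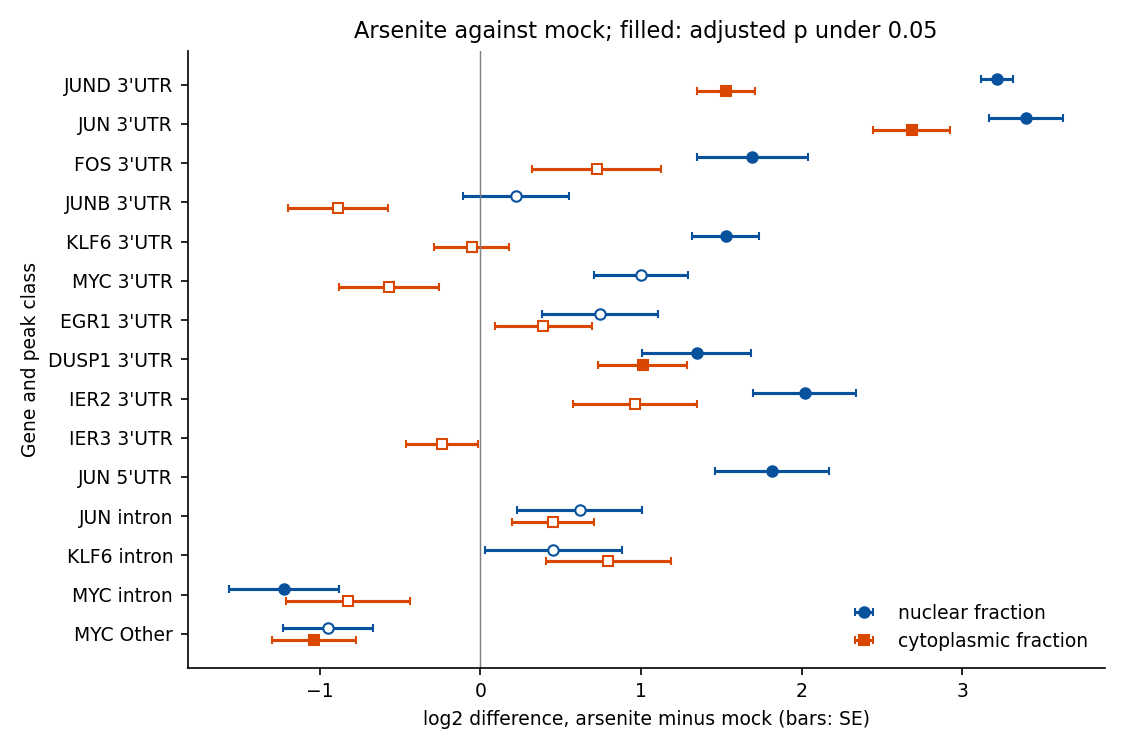
Log2 difference of CPM + 2.28, arsenite minus mock, for each gene and peak class, with the standard error from limma. Filled symbols have an adjusted p under 0.05. In nuclei 7 sums lie filled to the right of 0 and the MYC intron to the left, and in cytoplasm the 3'UTR sums of JUND, JUN and DUSP1 lie filled to the right.

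JUND encodes an AP-1 subunit (AP-1 being the dimeric factor formed by FOS and JUN family proteins) that, unlike its relatives, is expressed at a steady level in many resting cells. In mock nuclei its 3'UTR held 55.4, 57.3 and 55.0 CPM. After arsenite the nuclear libraries held 531, 498 and 593. The mock cytoplasmic libraries held 132, 206 and 218 CPM and the arsenite ones 516, 470 and 607. Every arsenite library was above every mock library of its fraction, and both arsenite groups lay in the same range.

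The nuclear rise of the JUND 3'UTR was 3.22 ± 0.098 in log2 (adjusted p = 8.14e-11), the smallest p of all 22212 sums. As a ratio of summed tags it was 9.63-fold, with an exact 95% interval of 8.18 to 11.4 that covers counting error only, as do all such intervals here. The cytoplasmic rise was 1.53 ± 0.18 (adjusted p = 4.08e-05), or 2.84-fold in summed tags (2.58 to 3.12). In mock cells the nuclear level was lower than the cytoplasmic one by 3.32-fold in summed tags (2.77 to 3.99), a log2 difference of -1.66 (adjusted p = 1.88e-05). After arsenite the fractions were not distinguishable, with a nuclear over cytoplasmic ratio of 1.02 (0.964 to 1.09; adjusted p = 0.901). The arsenite difference was larger in nuclei than in cytoplasm by 1.69 ± 0.18 (interaction in limma, adjusted p = 2.68e-11).

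Most of this signal sat in 1 peak, at chr19:18280036-18280056 on the minus strand, 342 bases from the RefSeq 3′ end of JUND. It held 5899 tags, 95.3% of the gene's. The table classes it as 3'UTR but also lists coding sequence and intron for it. In nuclei it went from 52.5, 51.8 and 52.1 CPM in mock to 508, 486 and 572 with arsenite, and in cytoplasm from 121, 194 and 207 to 501, 459 and 594. No group overlapped its mock counterpart. The nuclear difference was 3.26 ± 0.10 (adjusted p = 7.66e-08), the smallest p of 200232 peaks tested, and the cytoplasmic one 1.59 ± 0.20 (adjusted p = 0.00838). The cytoplasmic call on this peak was lost without mock replicate 2 or 3 (adjusted p up to 0.245), settings in which 0 and 43 of all peaks were called.

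JUN encodes the founding AP-1 subunit, which stress kinases of the JNK family phosphorylate and which activates its own promoter. Its 3'UTR sum held 5.83, 2.73 and 4.83 CPM in mock nuclei and 68.1, 58.4 and 77.1 in arsenite nuclei. In cytoplasm it held 10.6, 12.2 and 5.27 CPM in mock and 70.0, 73.3 and 66.8 after arsenite. The arsenite libraries stood well apart from the mock libraries in both fractions. The nuclear rise was 3.40 ± 0.23 (adjusted p = 7.82e-07), or 15.9-fold in summed tags (8.94 to 31.2). The cytoplasmic rise was 2.69 ± 0.24 (adjusted p = 3.51e-06), or 7.47-fold (5.04 to 11.5). Between fractions after arsenite the JUN 3'UTR differed by -0.05 ± 0.14 (adjusted p = 0.885), and its interaction did not pass (0.71, adjusted p = 0.20).

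The 3 peaks of the JUN 3'UTR were led by chr1:58781523-58781543, 732 bases from the gene's 3′ end, with 602 tags. This peak rose by 3.48 ± 0.27 in nuclei (adjusted p = 0.000400) and by 2.62 ± 0.27 in cytoplasm (adjusted p = 0.00393). Its share of the JUN 3'UTR tags in cytoplasm was 75.0 ± 5.00% in mock and 75.8 ± 2.72% after arsenite (exact permutation p = 0.9, two-sided, n = 3 each). A second JUN peak, chr1:58781358-58781378, went from 3.19, 1.02 and 1.05 CPM to 15.9, 13.6 and 16.7 in cytoplasm (2.17 ± 0.29, adjusted p = 0.0118). Both cytoplasmic calls were lost without mock replicate 2 or 3, and the nuclear call on the leading peak without mock replicate 1 or arsenite replicate 1 or 2 (adjusted p up to 0.135).

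The JUN 5'UTR peak, chr1:58783893-58783913, was, among the fractions, seen almost only in arsenite nuclei. It held 8.81, 5.60 and 6.06 CPM there (25 tags), against 0, 0.909 and 0 in mock nuclei (1 tag) and 0, 0.57 and 0 in arsenite cytoplasm (1 tag). In whole-cell input it had 5 tags in 3 of 5 G3BP1 and 4 tags in 2 of 2 NLS arsenite libraries, and none in mock. The ratio to mock nuclei was 19.3 (3.16 to 793) and that to arsenite cytoplasm 31.4 (5.13 to 1287). Its nuclear arsenite difference was 1.82 ± 0.36 (adjusted p = 0.00581) and its nuclear against cytoplasmic difference after arsenite 1.87 ± 0.33 (adjusted p = 0.000654). The first call was lost without any 1 of the nuclear arsenite libraries (adjusted p up to 0.0727), and the second without cytoplasmic arsenite replicate 2 or nuclear arsenite replicate 3 (up to 0.0589). This was the only sum of the 10 genes that passed between fractions after arsenite, 1 of 12 tested, where 4.99% of all 23772 passed.

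FOS, the dimer partner of JUN and a classic AU-rich message, had 0, 0 and 0.966 CPM in its 3'UTR in mock nuclei and 6.41, 5.60 and 6.06 after arsenite. The groups did not overlap, and the sum rose by 1.69 ± 0.35 (adjusted p = 0.00803). The tags summed over the group, 1 in mock, gave a ratio of 17.0 (2.75 to 701). In cytoplasm FOS held 0, 4.07 and 0 CPM in mock and 2.89, 3.41 and 2.78 after arsenite. These groups overlapped, and the difference did not pass (0.72, adjusted p = 0.261). The nuclear call was lost without any 1 of the arsenite libraries (adjusted p 0.0683 to 0.0733). Its leading peak was chr14:75282126-75282146, with 103 of 129 tags.

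JUNB, an AP-1 subunit that is also an immediate early gene, had 1 peak with 21 tags, chr19:12793019-12793039, and did not pass in either fraction. In cytoplasm it held 2.13, 2.04 and 4.22 CPM in mock and 0.722, 0.57 and 0 after arsenite, groups that did not overlap (-0.89, adjusted p = 0.0714). Its nuclear difference was 0.22 (adjusted p = 0.770). With 21 tags over all libraries, small differences in JUNB were not detectable.

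KLF6, a zinc finger transcription factor induced by injury and stress, had 6 peaks in its 3'UTR. Their sum held 8.74, 11.8 and 10.6 CPM in mock nuclei and 38.4, 31.2 and 32.9 in arsenite nuclei, with no overlap. In cytoplasm it held 22.3, 42.8 and 44.3 in mock and 34.7, 34.1 and 32.0 after arsenite, with overlap. The nuclear rise was 1.53 ± 0.21 (adjusted p = 0.000336), or 3.22-fold in summed tags (2.15 to 4.97). The cytoplasmic difference was -0.06 ± 0.23 (adjusted p = 0.905), a ratio of 0.919 (0.712 to 1.19). The interaction passed (1.58 ± 0.33, adjusted p = 0.000264). Without nuclear arsenite replicate 3 the nuclear call was lost (1.55, adjusted p = 0.0617), a setting in which 54 of all 24193 sums passed.

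Within the cytoplasmic sum of KLF6, its leading peaks went opposite ways, a pattern picked out after the values had been seen. The peak at chr10:3777112-3777132 held 9.57, 15.3 and 14.8 CPM in mock cytoplasm and 24.5, 21.0 and 20.9 after arsenite (0.68, adjusted p = 0.152). The peak at chr10:3776682-3776702 held 8.51, 22.4 and 22.1 CPM in mock and 5.78, 6.25 and 6.26 after arsenite (-1.16 ± 0.34, adjusted p = 0.0938). Neither passed, and neither pair of groups overlapped. The share of KLF6 3'UTR tags in the first peak was 37.3 ± 4.96% in mock cytoplasm and 65.9 ± 4.62% after arsenite. In nuclei it was 21.9 ± 19.8%, on few tags, against 52.7 ± 2.32%. Each comparison had an exact permutation p of 0.1 (two-sided), the smallest that 3 against 3 libraries can give. In nuclei the first peak rose by 2.23 ± 0.38 (adjusted p = 0.0456), a call lost when any 1 of the 6 nuclear libraries was left out and with the smaller pseudocount (up to 0.269).

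**Figure D3:**
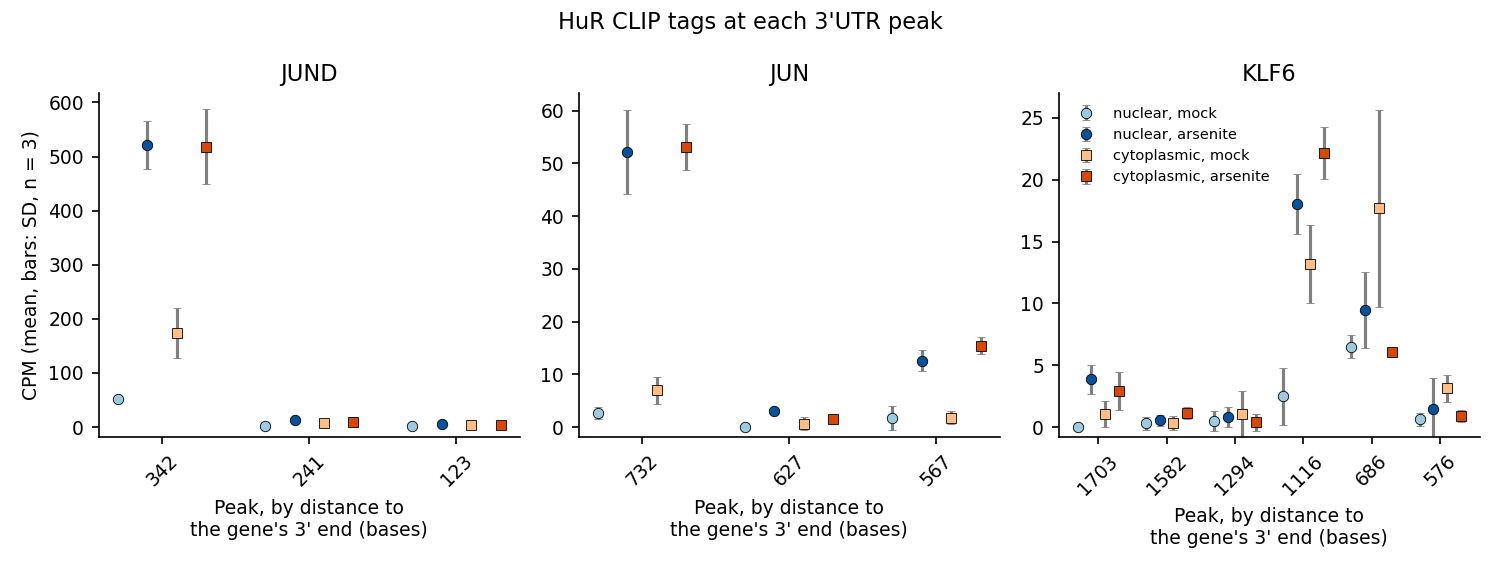
Mean CPM with SD over 3 libraries at each 3'UTR peak of JUND, JUN and KLF6, ordered by distance in bases to the RefSeq 3′ end of the gene. JUND is carried by the peak at 342 bases and JUN by the one at 732. In KLF6 the cytoplasmic arsenite value is above mock at 1116 bases and below it at 686.

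MYC, a growth-promoting transcription factor with a well-studied AU-rich 3'UTR, had 3'UTR sums of 4.37, 3.64 and 3.86 CPM in mock nuclei and 12.01, 11.2 and 7.80 after arsenite. In cytoplasm they were 6.38, 12.2 and 15.8 in mock and 7.22, 7.96 and 4.87 after arsenite. The nuclear groups did not overlap and the cytoplasmic ones did. Neither difference passed (nuclear 1.00, adjusted p = 0.0590; cytoplasmic -0.57, adjusted p = 0.256), but the interaction between them did (1.57 ± 0.45, adjusted p = 0.0110). The leading MYC peak, in the 3'UTR, had 103 of 164 tags and did not pass alone (nuclear 0.82, adjusted p = 0.210; cytoplasmic -0.45, adjusted p = 0.575). The interaction call was lost without cytoplasmic mock replicate 3 or cytoplasmic arsenite replicate 3 (adjusted p 0.0585 and 0.0552).

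Outside the 3'UTR, MYC tags in the fractions were few and nearly all in mock libraries, with 1 tag after arsenite, in the cytoplasm. The MYC intron peak held 4.37, 0.909 and 4.83 CPM in mock nuclei (9 tags) and none in arsenite nuclei, at least 3.88-fold lower with a floor of 3 tags over the group (-1.22 ± 0.34, adjusted p = 0.0481). The MYC peak of class Other held 2.13, 3.06 and 2.11 CPM in mock cytoplasm (7 tags) and none after arsenite, at least 3.72-fold lower (-1.04 ± 0.26, adjusted p = 0.0150). These calls were lost when 1 library was left out, namely any arsenite library in both, and nuclear mock replicate 1 or 3 for the intron, which was also lost with the larger pseudocount (adjusted p up to 0.241 for the intron and 0.106 for Other).

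EGR1, a zinc finger factor of the growth factor response, had 61 tags over 6 peaks. Its 3'UTR sum held 1.46, 0.909 and 0.966 CPM in mock nuclei and 4.004, 1.60 and 5.20 after arsenite, groups that did not overlap, but the difference did not pass (0.74, adjusted p = 0.259). In cytoplasm the values were 1.06, 1.02 and 0 against 1.44, 2.84 and 0.696, with overlap (0.39, adjusted p = 0.446). Its leading peak, chr5:138468563-138468583, had 16 tags and did not pass alone in nuclei (0.67, adjusted p = 0.210).

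DUSP1, a dual-specificity phosphatase that switches off MAP kinases, was the third gene called in both fractions. Its 3'UTR sum held 4.37, 2.73 and 0.966 CPM in mock nuclei and 10.4, 8.80 and 10.4 after arsenite. In cytoplasm it held 6.38, 7.13 and 4.22 in mock and 11.6, 13.1 and 18.1 after arsenite. Neither pair of groups overlapped. The nuclear rise was 1.35 ± 0.34 (adjusted p = 0.0291), or 3.97-fold in summed tags (1.74 to 10.6), and the cytoplasmic rise 1.01 ± 0.28 (adjusted p = 0.0248), or 2.40-fold (1.39 to 4.36). Without any 1 arsenite library, or mock replicate 2 or 3, the call was lost in both fractions (adjusted p up to 0.173 in nuclei and 0.160 in cytoplasm), and in nuclei also with the smaller pseudocount (0.0506). Its leading peak, chr5:172768201-172768221, did not pass alone in either fraction.

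IER2, a nuclear protein induced by growth factors and stress, rose in nuclei and did not pass in cytoplasm. Its 3'UTR sum held 1.46, 0.909 and 0.966 CPM in mock nuclei and 12.01, 9.60 and 13.0 after arsenite, with no overlap (2.02 ± 0.32, adjusted p = 0.00117). The ratio of summed tags was 10.8 (3.46 to 54.5). In cytoplasm it held 2.13, 1.02 and 7.38 in mock and 6.50, 9.66 and 7.65 after arsenite, with overlap through mock replicate 3 (0.96, adjusted p = 0.113). Without that library the cytoplasmic difference passed (1.41, adjusted p = 0.0331), and without nuclear arsenite replicate 3 the nuclear call was lost (adjusted p = 0.0617). Its leading peak, chr19:13154217-13154237, rose in nuclei by 2.17 ± 0.31 (adjusted p = 0.0150), a call lost without any 1 mock library, without arsenite replicate 1 or 2 and with the smaller pseudocount (up to 0.269). IER3, a stress-inducible regulator of cell survival, had 1 peak, chr6:30743586-30743606, with 6 tags in all. Of these, 2 were in mock and 1 in arsenite cytoplasm (-0.24, adjusted p = 0.547), and 1 in arsenite nuclei.

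Among single peaks, 5 of 29 tested peaks of these genes passed in nuclei and 3 of 29 in cytoplasm, all higher with arsenite, where 0.186% and 0.76% of all peaks passed. In mock cells 1 of 16 passed between fractions, the JUND peak, against 2.82% of all, and after arsenite 1 of 32, the JUN 5'UTR peak, against 0.257%. The first of these was lost without cytoplasmic mock replicate 2 or 3 or nuclear mock replicate 2 (adjusted p up to 0.102), the second without any 1 of the 6 arsenite libraries (up to 0.277). The nuclear call on the JUN 5'UTR peak (adjusted p = 0.0455) was lost without any 1 library of its groups (up to 0.343), with the replicate block (0.0528) and with the smaller pseudocount (0.127).

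In mock cells 3 of 11 sums were lower in nuclei than in cytoplasm, the 3'UTRs of JUND, KLF6 (-1.56, adjusted p = 0.000849) and MYC (-1.08, adjusted p = 0.0295), where 29% of all 21245 sums passed. Among 3'UTR sums the 3 of 8 that were lower stand beside 49.4% of all 6090, and their median of -0.76 beside -0.98. The MYC call was lost without any 1 library other than cytoplasmic mock replicate 1 (adjusted p 0.0797 to 0.136). After arsenite 0 of 9 tested 3'UTR sums of these genes passed between fractions with limma or edgeR, and 1, FOS (0.65), had an unadjusted p under 0.05 in limma. Of all 6591 3'UTR sums 10.9% passed in limma and 26.1% had an unadjusted p under 0.05. The interaction passed for 4 of 15 sums, where 11% of all 27489 passed. One of these was the JUN 5'UTR (1.89 ± 0.48, adjusted p = 0.00333), lost with edgeR (adjusted p = 0.325). Among 3'UTR sums it was higher in 3 of 10 (JUND, KLF6 and MYC), beside 24.2% of all 7282. These contrasts share libraries and are given side by side only.

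A wider list of AU-rich and immediate early genes without the 10 had 38 tested 3'UTR sums in each fraction. In nuclei 8 (21.1%) were higher and none lower, beside 13.8% of all 3'UTR sums higher, among them SIK1 (1.97), BTG2 (1.91) and MCL1 (1.72), with a list median of 0.59. In cytoplasm 1 was higher, SRF (1.34), and 5 (13.2%) were lower, beside 18.6% of all lower, among them ERRFI1 (-1.70) and CCN2 (-1.67), with a median of 0.02. SIK1 is a salt-inducible kinase, BTG2 an antiproliferative protein, MCL1 a short-lived survival protein, SRF the serum response factor and ERRFI1 an inhibitor of EGFR signalling. JUND itself was followed most closely over the 12 fraction libraries by the 3'UTR sums of GNA11 (Pearson r = 0.986), MAZ (0.979), MORC2 (0.972), KDM5C (0.969) and SETD5 (0.966), among 3198 genes. These correlations share the libraries and the split by treatment and are a description.

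In the input libraries, which come from whole cells, the tags of the 10 genes together were higher with arsenite in each of the 3 library sets. Their CPM was 7.58-fold higher in set JL0361 (3.97 to 16.6; G3BP1 line only, 690 against 9 tags), 5.67-fold in JL0388 (4.46 to 7.30) and 4.22-fold in JL1024 (2.99 to 6.06), where JUND held 110 of 140 arsenite and 38 of 44 mock tags. In JL1024 the NLS line gave 128 of these 140 and 40 of these 44 tags (4.70-fold, 3.28 to 6.89), NES gave 6 and 4 (1.48-fold, 0.351 to 7.13) and G3BP1 6 and 0. Without NLS arsenite replicate 2 the ratio in JL1024 was 2.49 (1.20 to 4.79), and without NLS mock replicate 2 it was 2.40 (0.919 to 8.95). In the 3'UTRs of the other 9 genes it was 7.48-fold (2.53 to 36.5; 227 against 3 tags), 7.16-fold (5.17 to 10.2) and 7.69-fold (2.94 to 25.4; 29 against 5 tags). Without G3BP1 mock replicate 2 the first of these was 1.92 (0.341 to 76.2), on 1 mock tag. All 5 mock tags of the last were in NLS mock replicate 2, so without that library no ratio could be formed. The EGR1 3'UTR differed by -1.15 in limma within JL0361 (adjusted p = 0.778). The JUND 3'UTR held 11.7 and 13.0 CPM in mock NLS input and 48.4 and 56.6 after arsenite, 7.19 and 33.1 against 47.0 and 40.8 in NES input, and 0, 28.5, 9.15 and 0 against 176, 197, 196, 27.7 and 22.1 in G3BP1 input. NLS and NES groups did not overlap, with only 2 libraries in each. In the NES input of set JL1024 the difference was 5 against 4 tags. The G3BP1 groups overlapped across library sets, and within each of the 3 sets every arsenite library was above every mock library. With limma, which gives each library equal weight, none of 6 sums passed over the 17 libraries, and 0% of all 11316 did, although 1175 of all (10.4%) and 4 of the 6 had an unadjusted p under 0.05. With edgeR on the whole tags, 5 of 6 were higher (DUSP1 3.21, IER2 2.97, JUN 2.86, JUND 2.13 and KLF6 1.33), where 7.2% of all passed, with adjusted p from 7.52e-07 to 0.0302. Within set JL0388 limma called 5 of 10, DUSP1 (2.46), JUN (1.98), JUND (1.87), FOS (1.74) and IER2 (1.59), where 2.89% of all passed. Within JL0361 it called 0 of 9 (lowest adjusted p 0.286, for JUND), where 0.0707% of all 14150 passed. Within JL1024 it called 0 of 2 (adjusted p = 0.763 for both), where 0% of all 6533 passed. Input totals ran from 17051 to 2622677 tags.

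After streptavidin capture these genes were thinly covered, and the JUND 3'UTR was the only sum tested in all 3 lines. In NLS libraries the JUND 3'UTR held 19.7, 0, 5.67 and 14.7 CPM in mock and 55.5, 17.8, 40.1 and 66.8 after arsenite. In NES libraries it held 0, 39.7, 0 and 28.4 against 26.1, 13.1, 6.21 and 31.9. In G3BP1 libraries the mock values ran from 0 to 61.4, median 3.31, over 6 libraries, and the arsenite values from 0 to 269, median 89.3, over 7. All 3 pairs of groups overlapped across library sets. Within sets, G3BP1 arsenite libraries lay above mock in JL0361 (76.1, 89.3 and 109 against 0 and 6.61) and in JL1024 (120 and 269 against 53.9 and 61.4), as did NLS in JL1024, whereas G3BP1 in JL0388 (33.8 and 0 against 0 and 0), NLS in JL0388 and NES in both its sets overlapped or shared a value. Limma called 0 of 3, 0 of 1 and 0 of 2 sums of these genes, and 0% of all 5238, 1554 and 2560 sums. At an unadjusted p under 0.05 these were 3, 0 and 2, where 6.53%, 6.76% and 16.2% of all sums had one. With edgeR JUND was higher in NLS (2.06, adjusted p = 0.0421; 0.0382% of all passed) and in G3BP1 libraries (2.14, adjusted p = 0.0142; 4.22% of all), and in NES its difference was 0.21 (adjusted p = 0.996). With edgeR and TMM scaling no sum of these genes passed, and JUND gave adjusted p values of 0.168 in NLS, 0.567 in G3BP1 and 0.707 in NES, the last with a difference of 1.39. There TMM moved the median of all sums in edgeR from -0.08 to 0.73. These tests and medians keep near-identical libraries apart. With such pairs counted once, limma gave JUND adjusted p = 0.0400 in NLS (2.04) and 0.472 in G3BP1. Within set JL1024 the tags of the 10 genes were 5.80-fold (2.91 to 12.8) higher with arsenite in NLS, 2.58-fold (1.71 to 3.82) in G3BP1 and 1.47-fold (0.439 to 7.69) in NES libraries. Of these JL1024 tags the 3'UTRs of the other 9 genes held 6 against 0 in NLS, 4 against 21 in G3BP1 (1.32-fold in CPM, 0.330 to 3.92) and 0 against 0 in NES. Leaving out 1 library moved the NLS ratio in JL1024 to as much as 10.2 (without mock replicate 4). The NES ratio was 0.455 without arsenite replicate 4, 2.34 without arsenite replicate 3 and 0.705 without mock replicate 3. NES mock replicate 4 held all NES mock tags of that set, so without it no ratio could be formed. For the 9 genes the G3BP1 ratio in JL1024 was 2.42 without mock replicate 6, 1.14 without mock replicate 5 and 2.08 without arsenite replicate 7. Arsenite replicate 6 held all 4 of these arsenite tags, so without it there were 0 against 21, the opposite direction. In JL0388 the tags of the 10 genes were 4.38-fold (1.85 to 11.9) higher in NLS and 1.73-fold (0.484 to 7.70) in NES, the latter 2.97 without mock replicate 2, and G3BP1 held 14 against 0 tags. There the 3'UTRs of the other 9 genes were 6.68-fold (1.93 to 35.6) higher in NLS, on 17 against 3 tags, and 2.70-fold (0.513 to 26.6) in NES, and held 11 against 0 tags in G3BP1. The NLS value was 4.196 without mock replicate 1 and 11.6 without mock replicate 2. In JL0361, which has the G3BP1 line only, they were 23.2-fold (4.10 to 921) higher, on 168 against 1 tag, of which the 9 genes held 56 and 0. The difference between lines was not tested.

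**Figure D4:**
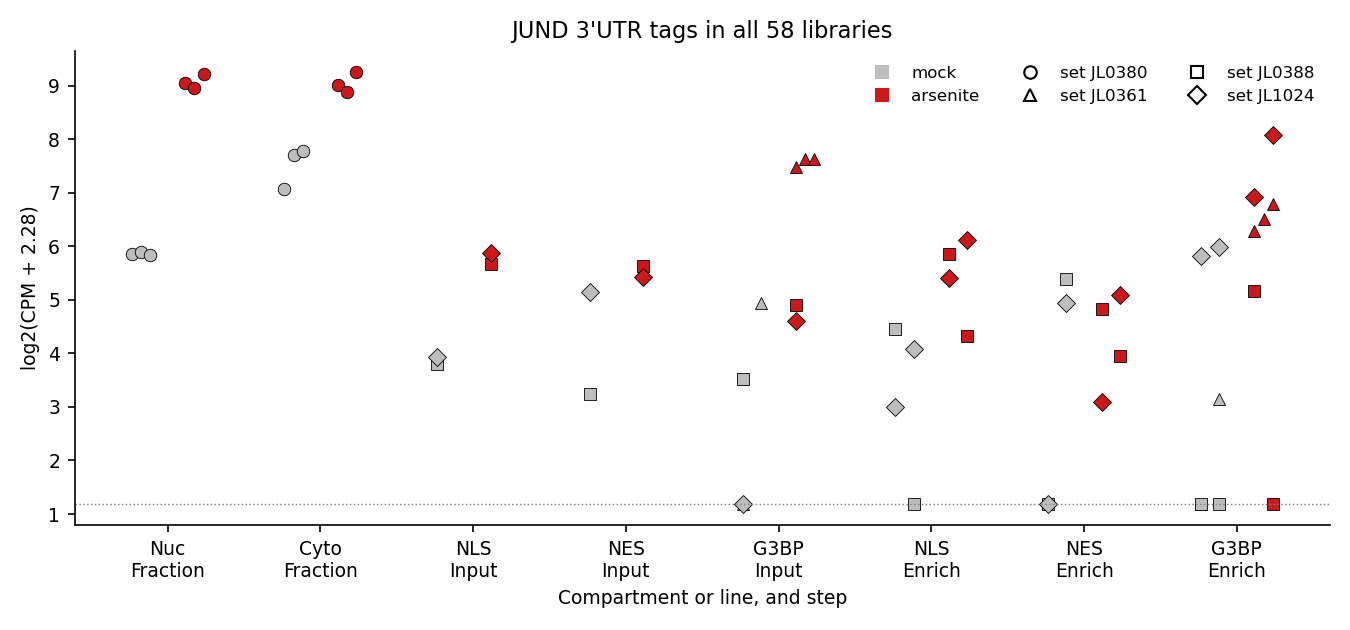
JUND 3'UTR tags as log2(CPM + 2.28) in every library, grey for mock and red for arsenite, with the library set given by the symbol. The dotted line is 0 tags. Arsenite points lie above mock points in both fractions and in the NLS and NES input, where each group has only 2 libraries. In the enriched libraries taken over all sets they overlap the mock points.

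Fraction libraries held 686263 to 1759090 tags in total and 235471 to 673322 in peaks. Enriched libraries held 4662 to 944225 in total and 519 to 86419 in peaks. Of 32 replicate pairs compared, 5 pairs of enriched libraries were not distinguishable beyond sampling noise (chi-square per degree of freedom 0.976 to 1.09, p 0.072 to 0.785) and each pair entered group means and SDs as 1 sample. Of 8 hepatocyte markers 6 had tags, with APOA1 and TTR at 0, and leukocyte markers had 148 tags (2 of 4 with tags) and fibroblast markers 0. The summed hepatocyte markers held less after arsenite, 625 to 657 CPM against 1069 to 1154 in nuclei and 893 to 1007 against 1732 to 2468 in cytoplasm. AFP and ALB carried that sum, whereas APOB held more in nuclei after arsenite (121 against 93.5 CPM) and APOA2 more in both fractions, on 24 tags. The leukocyte sum also held less, 2.40 to 4.004 CPM against 4.83 to 8.18 in nuclei and 5.56 to 7.39 against 17.3 to 21.1 in cytoplasm, led by LYZ, whereas PTPRC held more in cytoplasm after arsenite (2.12 against 0.706 CPM). The part of these markers in the results was not tested. The nuclear RNAs MALAT1 and NEAT1 together held 2265 to 2829 CPM in mock cytoplasm and 2788 to 3124 in mock nuclei, ranges that overlap. MALAT1 gave 57399 of the 63951 tags, with means of 2394 and 2561 in mock, and of 2838 in cytoplasm and 2903 in nuclei after arsenite. By MALAT1 tags the fractions were thus close, a limit on the comparisons between fractions. NEAT1 was lower in cytoplasm, 125 against 413 CPM in mock and 232 against 539 after arsenite.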

How the data were processed

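HuR CLIP-seq of Huh-7.5 cells was taken from the combined peak table as deposited. Its values are a normalized signal: the authors divided the tags in each peak by a total of the library, and multiplying back gave whole tags for 100% of values (within 0.01). GRCh38.p14, Bowtie2, SAMtools, bedtools and HOMER are named in the submitters' processing notes, without versions or roles. Whether coordinates count from 0 or 1 is not given in the sources used here, and they are printed as in the table. Column names were matched to sample titles, with S read as arsenite.

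Tags were summed per gene and peak class. Sums were tested as log2(CPM + 2.28) with limma 3.58.1 in R 4.3.3, over all sums that passed a filter on low values. edgeR 4.0.16 on whole tags, other pseudocounts, filters, scalings, a replicate block, left-out libraries, and the peak as feature were alternatives. Both tools were tested on simulated data. The text names all 10 genes, the peak with most tags of each and every peak past the threshold. Differences are on the log2(CPM + 2.28) scale, which understates changes of low sums. edgeR log2 differences are on its own scale. Replicate numbers did not pair the fraction libraries (correlations of deviations -0.048 to 0.031). Fraction libraries form 1 set, so no batch could be compared there. The genes and lists were chosen with earlier results of these data known. Promoters are from RefSeq. No genome was used here, so peak sequences are not shown.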

Additional observations from a re-analysis of the deposited data

Results flagged for a closer look

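For 4 of 15 sums the arsenite difference itself differed between the fractions, as tested by the interaction in limma. Each was larger in nuclei than in cytoplasm. Of all 27489 sums 11% passed. Among 3'UTR sums 3 of 10 passed, beside 24.2% of all 7282 that passed in the same direction and 0.0549% in the other. The difference of differences was 1.69 for the JUND 3'UTR (nuclear 3.22, cytoplasmic 1.53), 1.58 for the KLF6 3'UTR (1.53 and -0.06), 1.57 for the MYC 3'UTR (1.00 and -0.57) and 1.89 for the JUN 5'UTR, on log2 of CPM + 2.28. The JUND and KLF6 interactions passed in all 20 alternatives run for them. The JUN 5'UTR interaction did not pass with edgeR (adjusted p = 0.325), with or without TMM. The MYC interaction did not pass in limma without cytoplasmic mock replicate 3 or cytoplasmic arsenite replicate 3 (adjusted p 0.0585 and 0.0552).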

How the results depend on the processing

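Over 57 log2 differences of named sums and 853 alternatives of them, 792 kept direction and side of the threshold, 39 lost it, 6 gained it and 16 changed sign, none of them called either way. Of those 16, scaling to tags in peaks gave 0.0090 for the JUN 3'UTR between fractions after arsenite, and edgeR with TMM gave -0.025 for the MYC intron between fractions in mock. The others came from leaving out 1 library, with ranges for arsenite against mock of -0.35 to 0.11 (KLF6 3'UTR, cytoplasm) and -0.015 to 0.53 (JUNB 3'UTR, nuclei). Between fractions the ranges were -0.21 to 0.14 (MYC Other) and -0.21 to 0.75 (MYC intron) in mock, and -0.15 to 0.048 (JUN 3'UTR), -0.054 to 0.13 (JUND 3'UTR) and -0.063 to 0.079 (KLF6 3'UTR) after arsenite. For the interaction they were -0.14 to 0.21 (MYC Other) and -0.87 to 0.083 (MYC intron). Leaving out libraries from the pooled ratios within a set was chosen after seeing the data. The JUND and JUN 3'UTR rises passed in all 14 alternatives in each fraction (JUND 1.31 to 1.67 in cytoplasm and 3.08 to 3.28 in nuclei, JUN 2.12 to 2.95 and 2.50 to 3.95). Leaving out 1 library at a time gave 2 to 4 called sums in cytoplasm and 2 to 8 in nuclei. Between fractions it gave 2 to 3 in mock and 0 to 1 after arsenite. It gave 3 to 4 for the interaction and 0 to 0 for input. For enriched libraries it gave 0 to 1 in NLS, and 0 to 0 in NES and G3BP1. Calls over all sums moved as well. Without nuclear arsenite replicate 1, 2 or 3 they were 414, 405 and 54 in nuclei, beside 1361 of 22212 in the main fit. Without cytoplasmic arsenite replicate 1, 2 or 3 they were 973, 480 and 791 in cytoplasm, beside 3047 of 22884. For peaks the ranges were 0 to 5 in cytoplasm and 1 to 5 in nuclei. Between fractions they were 0 to 2 in mock and 0 to 0 after arsenite. Of all peaks, 0 of 266585 passed in cytoplasm without mock replicate 2, and 16959 of 236750 without arsenite replicate 2. In nuclei 1 of 268882 passed without mock replicate 1. With the replicate block the counts were 4, 8, 3, 1 and 4 for the fraction sums in that order and 0 for input and each enriched line; for peaks they were 3, 5, 2 and 1, the 5 holding the second JUN 3'UTR peak in place of the JUN 5'UTR one.

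Between fractions after arsenite, 0 sums were called when tags were required in every library and 0 with all classes of a gene summed, which left 2 interaction calls. Input gave 5 calls with edgeR, 4 with TMM (265 of all 11316) and 5 within JL0388. NLS enriched gave 1 with edgeR and 1 with near-identical pairs counted once, and G3BP1 enriched 1 with edgeR and 2 within JL0388 (1068 of all 2154). In that last setting both groups are near-identical pairs that count as 1 sample, so it compares 1 sample with 1 and is no test of arsenite. For peaks, tags in every library gave 5 of 11 calls in cytoplasm (3 higher, 2 lower; 4379 of all 28616 peaks), 3 of 6 in nuclei (1620 of 30460), 3 of 7 between fractions in mock (4415 of 19350) and 0 of 17 after arsenite (2259 of 43239). The smaller pseudocount gave 2 in nuclei. Between fractions in mock, the larger pseudocount, scaling to tags in peaks, edgeR and the replicate block gave 2 each. Except for the filters, which test fewer features, the cause was not tested. Within edgeR, TMM in place of the library total moved the median of all sums from 0.22 to 0.003 between fractions in mock, from 0.19 to 0.05 in NLS, from -0.08 to 0.73 in NES and from 0.41 to 0.24 in G3BP1 enriched libraries. Too few G3BP1 enriched sums had tags in every library for that setting to be run. Low tag counts limit JUNB, IER3, EGR1 and the enriched libraries, where small differences are not detectable.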
